A study of Mus musculus with 16 samples.

Results

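The genes described here encode components of tight, gap and adherens junctions, and were chosen by name as 38 of the 56748 genes in the deposited count table. They comprise 12 genes of the tight junction membrane (occludin, the MARVEL proteins and claudins), 9 genes of its cytoplasmic scaffold, 5 genes of junctional adhesion molecules and their relatives, 3 connexin genes of gap junctions and 9 genes of adherens junctions. All 38 symbols matched 1 identifier each. Counts were measured in TM4 cells, a mouse cell line that the labels call Sertoli-like, using RNA from whole wells in 16 samples.

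Sertoli cells, the somatic supporting cells of the testis, form the blood-testis barrier. In this barrier, claudins and occludin seal the space between neighbouring cells, and scaffold proteins of the zonula occludens and cingulin families tie them to actin. Gap junctions are channels built from connexins that let small molecules pass between cells, and GJA1 (connexin 43) is the connexin best known from Sertoli cells. Adherens junctions hold cells together through cadherins, which are anchored by catenins, and through nectins, which are anchored by afadin.

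In 6 samples the cells carried an empty vector (EV), in 5 samples an expression plasmid for gdf6Y, and in 5 samples a plasmid for the gdf6Y mutant variant del9. Replicate 6 of gdf6Y and replicate 6 of del9 were excluded by the authors for fewer assigned reads and more duplicate reads. Gdf6Y is a growth factor of the BMP family from the turquoise killifish, encoded by the Y-chromosomal allele that determines the male sex. Each well received 2.5 µg of plasmid by lipofection, and RNA was isolated 24 h later, so that all groups share the transfection and the line. The share of cells that took up a plasmid is not given in the sources used here, and in RNA from whole wells, fewer cells with a transcript and less transcript per cell cannot be told apart. The EV and del9 samples both served as controls for gdf6Y, and del9 was compared with EV as well. The 3 comparisons share samples and are not independent of each other. No source says that the replicates of a group came from separate cultures, and the p-values measure only the spread between these samples.

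Between 21486850 and 26444903 reads per sample were counted on genes. No sample had a read of the mouse gene *Gdf6*. The killifish transgene has no row in a mouse annotation and was not measured here. *Id1*, a direct target of BMP signaling, had a mean normalized count of 1035 with EV, 1235 with del9 and 1927 with gdf6Y. It was higher with del9 compared with EV (log2 fold change 0.26, adjusted p = 2.56e-10 by edgeR). The same comparison gave 0.15 for *Id2* (adjusted p = 0.0412 by edgeR) and 0.03 for *Id3* (adjusted p = 0.681 by edgeR). Whether del9 keeps some activity was not tested. A normalized count is the count of a sample scaled to the mean effective library size. Of 13 Sertoli cell markers, 5 were expressed (*Gata4*, *Kitl*, *Dhh*, *Sox9* and *Inha*) and 2 had no read (*Wt1* and *Dmrt1*). With EV, *Gata4* and *Kitl* had means of 831 and 707 normalized counts, and *Sox9* had 43. *Amh* was at 5.49, *Nr5a1* at 1.15 and *Fshr* at 0.171 with EV, and *Cldn11* had no read there. The summed normalized counts of the list ranged from 1687 to 1774 with EV, from 1509 to 1624 with gdf6Y and from 1582 to 1746 with del9. The Sertoli cell marker *Gata4* was at 831 ± 6.04 (SD, n = 6) in EV, 722 ± 19 (SD, n = 5) in gdf6Y and 791 ± 27.5 (SD, n = 5) in del9, and was lower with gdf6Y compared with EV (log2 fold change -0.20, adjusted p = 9.98e-05 by edgeR). None of 6 endothelial and none of 3 germ cell markers was expressed. Of 6 epithelial markers 1 was expressed (*Grhl2*), and *Epcam* had no read. Of 4 myoid markers 3 were expressed. *Acta2* was at 4530 ± 83.1 (SD, n = 6) in EV, whereas *Des*, *Cnn1* and *Myh11* had means of 44.1, 32 and 0.678 there. The summed level of the list, mostly *Acta2*, was 4478 to 4714 with EV, 4710 to 5057 with gdf6Y and 4571 to 4840 with del9. Of 6 Leydig cell markers 1 was expressed, and of 5 granulosa cell markers *Fst* was expressed and 3 had no read. The summed level of the granulosa list was 398 to 562 with EV, 388 to 614 with gdf6Y and 528 to 725 with del9, and *Fst* was higher with del9 compared with EV (log2 fold change 0.44, adjusted p = 2.13e-18 by edgeR) and lower with gdf6Y compared with del9 (log2 fold change -0.29, adjusted p = 2.26e-06 by edgeR). The part of these markers in the results below was not tested.

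Of the 38 junction genes, 22 were expressed, which is used here for a mean of at least 10 normalized counts over the 16 samples. Another 12 had reads but stayed below this level, and *Cldn4*, *Cldn5*, *Cldn7* and *Gjb2* had no read. A count of 0 allows a level of up to 3 of the 394478886 reads counted in all samples together, a limit that covers counting error only. Of the 12 genes with reads, *Marveld2*, *Cldn1*, *Cldn2*, *Cldn3*, *Cldn6* and *Tjp3* had between 1 and 3 reads in all samples together. Just above the threshold, *Cxadr* had a mean of 12.3 normalized counts. Just below it, *Cldn15* had a mean of 5.21, with at most 12 reads in a sample.

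The genes below the threshold included many that are known from epithelia and endothelia. *Ocln*, the gene of occludin, had at most 5 reads in a sample, and *Marveld3* had at most 4. *Cdh1*, which encodes E-cadherin, the classical cadherin of epithelia, had at most 3 reads in a sample. *Jam2* and *Esam*, adhesion molecules known from endothelium, reached 7 reads each.

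Levels of different genes were compared per length, as RPKM, the count divided by the library size and by the length of the gene's merged exons. *Ctnna1*, which encodes alpha-catenin, the actin link of cadherins, had the highest level of the list with 56.4 ± 0.663 RPKM (SD, n = 6) in EV. *Cgnl1*, the gene of paracingulin, followed with 41.3 ± 0.75 RPKM (SD, n = 6) and *Gja1* with 36.5 ± 0.746 RPKM (SD, n = 6). These were the leading scaffold and gap junction genes of the list.

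The ranges of *Cgnl1* and *Gja1* over all samples overlapped, but *Cgnl1* was the higher gene in all 16 samples. Below them, the levels formed steps. *Tjp1* (ZO-1), *Cdh11*, *F11r* (JAM-A), *Afdn* (afadin), *Nectin2*, *Cldn12* and *Cdh2* (N-cadherin) had means between 17.8 and 11.7 RPKM over the 16 samples, and the range of each gene overlapped with that of the next. The mean levels then dropped to 7.22 RPKM for *Pard3*, a polarity scaffold, and 6.56 RPKM for *Mpdz*, a scaffold with many PDZ domains. The adhesion molecule gene *Jam3* was at 4.97 RPKM and *Magi3* at 4.59 RPKM, with overlapping ranges. Each of *Gjc1* (3.45 RPKM), *Magi1* (2.69 RPKM), *Cgn* (2.64 RPKM), *Ctnnd1* (1.99 RPKM), *Nectin1* (1.4 RPKM), *Nectin3* (1.14 RPKM) and *Patj* (0.5 RPKM) was lower than the gene before it, with overlapping ranges for *Magi1* and *Cgn* and for *Nectin1* and *Nectin3*. *Cxadr*, the gene of the coxsackievirus and adenovirus receptor, had the lowest level of the expressed genes with 0.0457 RPKM. By this measure, the shorter *Cldn15* was at 0.0971 RPKM.

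The level per length depends on the exons counted as the gene's length. With the longest transcript in place of all merged exons, *Ctnna1* was at 116 RPKM and *Gja1* at 78 RPKM, ahead of *Cgnl1* at 44.8 RPKM. For *Ctnnd1* (p120-catenin), 4482 of 11919 exonic bases are shared with another annotated gene on the same strand. Reads on several genes were discarded by the authors. Whether reads of *Ctnnd1* were lost in this way was not tested, and the overlap comes from another annotation release than theirs.

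Most families were represented mainly by 1 gene. *Cldn12* made up 97.5% ± 0.884 (SD, n = 6) of the summed claudin level with EV, and of the 25 claudin genes examined here, 13 had no read and no other was expressed. *Cldn11*, the claudin best known from Sertoli cells, had a mean of 0.0599 normalized counts over the 16 samples. Of the connexins, *Gja1* held 89.3% ± 0.509 (SD, n = 6) of the level with EV and *Gjc1* (connexin 45) 8.15% ± 0.22 (SD, n = 6). *Gjb2* (connexin 26) had no read. The level of *Gja1* was 10.5 times that of *Gjc1* in the mean of the 16 samples, with single samples between 9.36 and 11.4. *Cgnl1* exceeded its relative *Cgn*, the gene of cingulin, by a mean ratio of 15.5.

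Of the cadherins, *Cdh11* and *Cdh2* contributed 46% ± 0.822 (SD, n = 6) and 35.1% ± 0.627 (SD, n = 6) of the level with EV. *Cdh11* was higher than *Cdh2* in every sample, at 1.25 to 1.39 times its level. *Nectin2* accounted for 82.5% ± 1.34 (SD, n = 6) of the nectin level, *F11r* was at 2.97 times the level of *Jam3* with EV, and *Magi3* at 1.71 times that of *Magi1*.

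Replicates varied little for most of these genes. The coefficient of variation within a group was lowest for *Cdh2* with EV (0.916%), and highest for *Cxadr* with EV (31.8%), where counting alone gives 28.5%. Among the other genes, it was highest for *Patj* in the del9 samples with 17.9%, compared with 7.65% from counting. One gdf6Y sample stood apart. Replicate 5 had the lowest value of its group for 12 of the 22 expressed junction genes, whereas the other gdf6Y samples were the lowest for 0 to 4 genes each. Results that rest on this sample are given with and without it.

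In the comparison of gdf6Y with EV, which asks what the gdf6Y plasmid changes, 5 junction genes were downregulated and none was upregulated. These were the scaffold genes *Tjp1*, *Cgnl1* and *Cgn*, the claudin gene *Cldn12* and the adherens junction gene *Afdn*, which fell by 6.49% (*Cgnl1*) to 12.2% (*Tjp1*). The quasi-likelihood test of edgeR was used with p-values adjusted by Benjamini and Hochberg over all genes tested, and genes were called below 0.05. None of the junction genes was upregulated at an unadjusted p-value below 0.05 either. DESeq2 called 4 of the genes downregulated and none upregulated, next to 755 and 525 of all genes. Of the 38 genes, 33 had a read in these samples and were tested. The EV plasmid holds no insert, so effects of the growth factor and of expressing an insert cannot be told apart in this comparison.

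For comparison, 3.38% of all 26316 genes tested were called downregulated and 1.7% upregulated. Among the 12578 expressed genes these were 7.03% and 3.51%, next to 5 and 0 of the 22 expressed junction genes. The median log2 fold change of the 22 genes was -0.036, and that of all expressed genes was 0.001. By class, 3 of 8 expressed scaffold genes, 1 of 8 adherens junction genes and the only expressed claudin were downregulated. None of the 3 expressed genes of junctional adhesion molecules and their relatives and of the 2 connexin genes passed the test.

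*Tjp1* encodes ZO-1, which links claudins and other membrane proteins of the tight junction to actin. Its normalized count was 3515 at the lowest, 3710 in the median and 3847 at the highest of the EV samples. In the gdf6Y samples it was 3380.7, 3247.6, 3242, 3431.9 and 2962.3. In the del9 samples it was 3436, 3647, 3238, 3511.9 and 3379.1. Every gdf6Y sample lay below every EV sample, and 4 of the 5 del9 samples did so as well. *Tjp1* fell by 12.2% with gdf6Y compared with EV (log2 fold change -0.19, standard error 0.03, adjusted p = 5.74e-08 by edgeR with Benjamini-Hochberg correction). Without gdf6Y replicate 5 the log2 fold change was -0.16 and the adjusted p = 4.35e-05 by edgeR. The size of the p-value depended on the filter. With genes of low counts removed before the fit (filterByExpr), the log2 fold change was -0.19 and the adjusted p = 0.00229 by edgeR.

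*Afdn* encodes afadin, which couples nectins to actin. The EV samples ranged from 4655 to 4976 normalized counts with a median of 4785. The gdf6Y samples were at 4802, 4383.3, 4209.9, 4381.5 and 4088.8, and 4 of them were below all EV samples, whereas replicate 1 was within the EV range. The del9 samples were at 4492.6, 4740, 4491.3, 4498.7 and 4397.2, again with 4 of 5 below the EV samples. *Afdn* fell by 8.47% with gdf6Y (log2 fold change -0.13, standard error 0.03, adjusted p = 0.000459 by edgeR). With filterByExpr the adjusted p was 0.0197 by edgeR. *Afdn* lost the call when read counts were corrected for a trend on gene length (log2 fold change -0.07, adjusted p = 0.123 by edgeR).

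*Cldn12* is an unusual claudin whose protein lacks the PDZ-binding end that most claudins use to bind ZO proteins. Its normalized count with EV ranged from 3098 to 3183, with a median of 3111. With gdf6Y the samples were at 2823.8, 2882.5, 2881.4, 3000 and 2863.6, and with del9 at 3081, 3036.7, 2908.8, 3072.2 and 3028.1. All gdf6Y samples and all del9 samples were below the EV samples, and 4 of the 5 gdf6Y samples were below the lowest del9 sample. *Cldn12* fell by 7.44% with gdf6Y compared with EV (log2 fold change -0.11, standard error 0.03, adjusted p = 0.00658 by edgeR). With the length correction the log2 fold change was -0.09 and the adjusted p = 0.0592 by edgeR.

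*Cgnl1* encodes paracingulin, which is found at both tight and adherens junctions. The EV samples ranged from 7938 to 8263 normalized counts with a median of 8193. The gdf6Y samples were at 7860.3, 7635.3, 7678, 7587.5 and 7213.1, and the del9 samples at 8097.6, 8380.3, 8280.5, 8012.5 and 8080.8. All gdf6Y samples were below all EV and all del9 samples, and the ranges of EV and del9 overlapped. *Cgnl1* fell by 6.49% compared with EV (log2 fold change -0.10, standard error 0.03, adjusted p = 0.00873 by edgeR). Without gdf6Y replicate 5 it lost the call (log2 fold change -0.08, adjusted p = 0.103 by edgeR).

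*Cgn* encodes cingulin, a cytoplasmic protein of the tight junction that binds ZO-1. It was at 388 to 459 normalized counts with EV, with a median of 435. The gdf6Y samples were at 389.3, 390.2, 413.9, 366.3 and 341.2, and the del9 samples at 444.8, 411.9, 400.2, 399.8 and 359.7. The groups overlapped, and 2 of 5 gdf6Y samples were below the EV samples. *Cgn* fell by 11.2% (log2 fold change -0.17, standard error 0.05, adjusted p = 0.0311 by edgeR). This call was the least stable, and was lost in 10 of 22 alternative settings, among them leaving out gdf6Y replicate 5 (log2 fold change -0.14, adjusted p = 0.23 by edgeR).

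**Figure D1:**
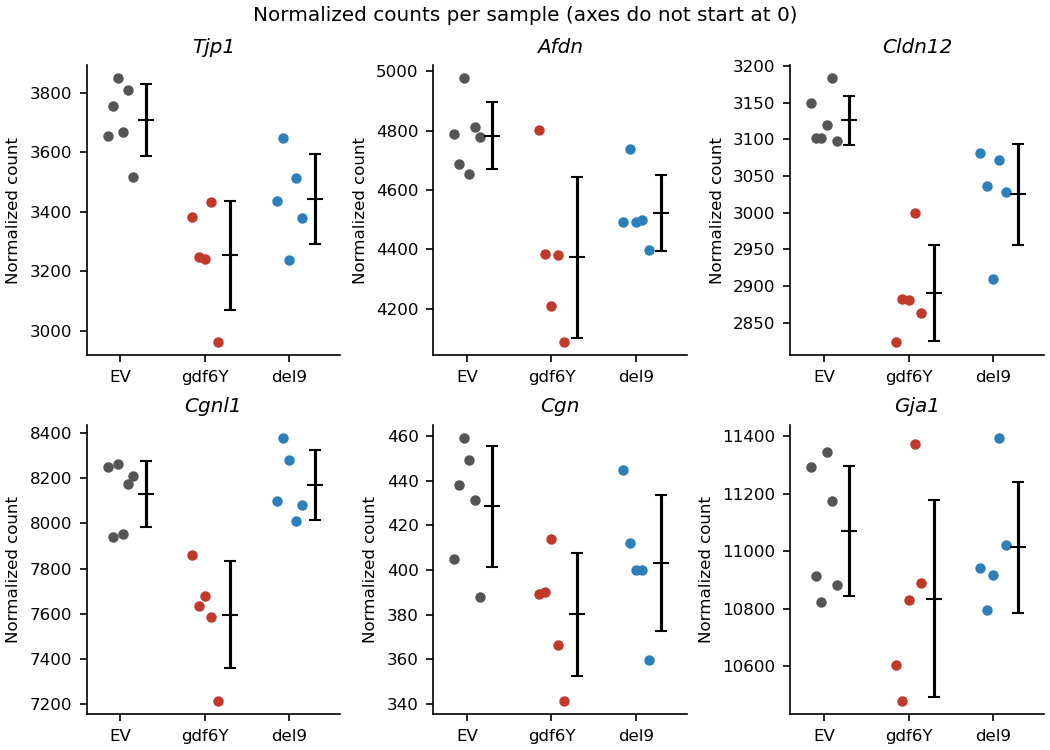
Normalized counts per sample (points) in the 3 groups, with the mean and standard deviation as black lines, for the 5 downregulated genes and for *Gja1*; the axes do not start at 0. All gdf6Y samples are below all EV samples for *Tjp1*, *Cldn12* and *Cgnl1*, and the groups of *Gja1* overlap.

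These 5 genes are on different chromosomes, and the sequences around their starts are shown because the genes were downregulated in the same comparison. Each window runs from 250 bases before to 50 bases after the start of the Ensembl canonical transcript in GRCm39, read 5′ to 3′ on the strand of the gene. The capitals mark 2 motifs that were searched on both strands, each of which reads the same on either strand when its N positions can be any base: GGCGCC, the core of the GC-rich element bound by BMP-activated Smads, and CANNTG, the E-box bound by the basic helix-loop-helix factors that ID proteins inhibit. *Tjp1* extends from 64945898 to 65177529 on the minus strand of chromosome 7, *Afdn* from 13980555 to 14126680 on the plus strand of chromosome 17, and *Cldn12* from 5539537 to 5564995 on the minus strand of chromosome 5. *Cgnl1* extends from 71533791 to 71678884 on the minus strand of chromosome 9 and *Cgn* from 94667376 to 94695136 on the minus strand of chromosome 3. The windows of *Tjp1* and *Cgn* lie inside the annotated gene, since other transcripts start further upstream.
Tjp1, chr7:65020986-65021285, minus strand: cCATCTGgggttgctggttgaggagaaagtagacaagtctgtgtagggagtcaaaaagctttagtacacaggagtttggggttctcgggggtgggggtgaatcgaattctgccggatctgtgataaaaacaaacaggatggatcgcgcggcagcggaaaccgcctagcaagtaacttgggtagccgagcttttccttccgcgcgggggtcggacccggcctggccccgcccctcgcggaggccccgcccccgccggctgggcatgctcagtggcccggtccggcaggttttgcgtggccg
Afdn, chr17:13980305-13980604, plus strand: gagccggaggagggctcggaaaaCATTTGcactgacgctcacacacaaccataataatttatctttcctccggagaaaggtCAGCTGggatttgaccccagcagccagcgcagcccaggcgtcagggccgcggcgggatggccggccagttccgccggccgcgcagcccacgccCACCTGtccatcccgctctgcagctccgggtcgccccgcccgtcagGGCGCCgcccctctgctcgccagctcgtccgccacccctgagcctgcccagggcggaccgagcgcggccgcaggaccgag
Cldn12, chr5:5564946-5565245, minus strand: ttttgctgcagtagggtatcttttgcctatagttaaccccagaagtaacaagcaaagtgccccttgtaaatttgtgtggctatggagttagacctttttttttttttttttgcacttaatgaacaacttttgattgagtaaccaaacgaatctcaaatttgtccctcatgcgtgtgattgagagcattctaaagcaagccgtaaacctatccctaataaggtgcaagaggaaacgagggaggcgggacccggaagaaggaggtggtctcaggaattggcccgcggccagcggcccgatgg
Cgnl1, chr9:71678835-71679134, minus strand: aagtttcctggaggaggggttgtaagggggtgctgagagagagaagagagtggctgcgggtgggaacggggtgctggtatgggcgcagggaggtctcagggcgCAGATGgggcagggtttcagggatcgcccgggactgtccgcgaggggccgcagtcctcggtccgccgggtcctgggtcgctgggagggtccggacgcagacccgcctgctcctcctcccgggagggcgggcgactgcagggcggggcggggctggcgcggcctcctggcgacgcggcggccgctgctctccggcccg
Cgn, chr3:94693777-94694076, minus strand: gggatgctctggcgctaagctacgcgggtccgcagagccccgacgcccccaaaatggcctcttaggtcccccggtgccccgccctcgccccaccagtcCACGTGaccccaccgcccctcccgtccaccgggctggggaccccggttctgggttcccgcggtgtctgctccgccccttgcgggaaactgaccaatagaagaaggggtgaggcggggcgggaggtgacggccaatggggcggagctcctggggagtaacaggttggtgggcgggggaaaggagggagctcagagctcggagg

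GGCGCC was present only in the window of *Afdn*, 1 of 5, compared with 12.4% of the windows of 21630 protein-coding genes and 3 of the 22 expressed junction genes. CANNTG was present 3 times in the window of *Afdn* and 1 time each in those of *Tjp1*, *Cgnl1* and *Cgn*, whereas the window of *Cldn12* held none. It was found in 70.6% of all windows and in 18 of those of the 22 expressed junction genes. The GC content was 62% for *Tjp1*, 69.7% for *Afdn*, 73.3% for *Cgnl1* and 70% for *Cgn*, but 45.3% for *Cldn12*, next to a median of 54.3% for all windows. The matches describe the letters and not binding.

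All 8 expressed scaffold genes had a negative log2 fold change with gdf6Y compared with EV, between -0.19 and -0.04, whereas 49.6% of all expressed genes were negative. With the correction for gene length described below, 7 of the 8 were negative, and 6 of 8 when the model also held the replicate number. Outside the 3 that passed the test, *Magi1*, *Magi3* and *Mpdz* reached an unadjusted p-value below 0.05 in edgeR's test. This brings the number of junction genes with a lower level at this threshold to 8. The share of all expressed genes at this threshold was not counted for this comparison, so the number has no background. *Magi1* and *Magi3* encode scaffolds with inverted guanylate kinase domains. *Magi1* had 722 ± 29.9 normalized counts (SD, n = 6) in EV and 663 ± 34.7 (SD, n = 5) in gdf6Y, at an adjusted p-value of 0.078 in edgeR's test. *Magi3* had 1082 ± 40.7 (SD, n = 6) and 1010 ± 34.5 (SD, n = 5), at an adjusted p-value of 0.122 in edgeR's test. *Mpdz* had 2555 ± 38.6 (SD, n = 6) and 2423 ± 164 (SD, n = 5) with 4 of 5 gdf6Y samples below all EV samples and replicate 1 above them, at an adjusted p-value of 0.186 in edgeR's test. Without this replicate, *Mpdz* passed the test (log2 fold change -0.11, adjusted p = 0.0129 by edgeR). *Pard3* had 2724 ± 96.5 (SD, n = 6) and 2641 ± 46.7 (SD, n = 5), and *Patj*, the gene of a scaffold of the Crumbs complex, had 163 ± 8.53 (SD, n = 6) and 157 ± 15.9 (SD, n = 5). Both had overlapping groups, with adjusted p-values of 0.567 and 0.805 in edgeR's test.

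The gap junction genes did not pass the test. *Gja1* had 11072 ± 226 normalized counts (SD, n = 6) in EV, 10835 ± 344 (SD, n = 5) in gdf6Y and 11014 ± 228 (SD, n = 5) in del9. Its log2 fold change between gdf6Y and EV was -0.03, with a 95% interval from -0.08 to 0.02. *Gjc1* had 811 ± 31.7 (SD, n = 6), 852 ± 42.6 (SD, n = 5) and 858 ± 40.8 (SD, n = 5), and its log2 fold change was 0.07 with an interval from -0.01 to 0.15.

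Of the adherens junction genes, *Ctnna1* had a log2 fold change of 0.00 between gdf6Y and EV, with an interval from -0.05 to 0.05. It was at 12643 ± 149 normalized counts (SD, n = 6) in EV samples and 12622 ± 245 (SD, n = 5) in gdf6Y samples. *Cdh2* had 2473 ± 22.6 (SD, n = 6) and 2488 ± 71.3 (SD, n = 5), and *Cdh11* had 4353 ± 170 (SD, n = 6) and 4280 ± 154 (SD, n = 5). The cadherins thus differed by less than the spread between samples, with intervals of the log2 fold change from -0.05 to 0.07 and from -0.08 to 0.03. *Ctnnd1* had 609 ± 20.1 (SD, n = 6) and 586 ± 18.8 (SD, n = 5) normalized counts, with an interval of the log2 fold change from -0.14 to 0.03. *Nectin2* had 1196 ± 52.7 (SD, n = 6) and 1179 ± 51.9 (SD, n = 5), *Nectin3* had 522 ± 19.3 (SD, n = 6) and 526 ± 25.7 (SD, n = 5), and *Nectin1* had 229 ± 18.7 (SD, n = 6) and 232 ± 14.4 (SD, n = 5) normalized counts. The nectin genes had overlapping groups and log2 fold changes of 0.02 (*Nectin1*), -0.02 (*Nectin2*) and 0.01 (*Nectin3*), with adjusted p-values of 0.911, 0.835 and 0.945 in edgeR's test.

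The genes of junctional adhesion molecules and their relatives did not pass the test. *F11r* had 1249 ± 53.7 normalized counts (SD, n = 6) in EV and 1270 ± 79 (SD, n = 5) in gdf6Y, and *Jam3* had 833 ± 57.8 (SD, n = 6) and 840 ± 15.3 (SD, n = 5). The intervals of their log2 fold changes ran from -0.04 to 0.10 and from -0.07 to 0.09. *Cxadr* was at 8 to 18 normalized counts with EV and 11 to 17 with gdf6Y, and at this depth the interval of its log2 fold change was wide, from -0.39 to 0.66.

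**Figure D2:**
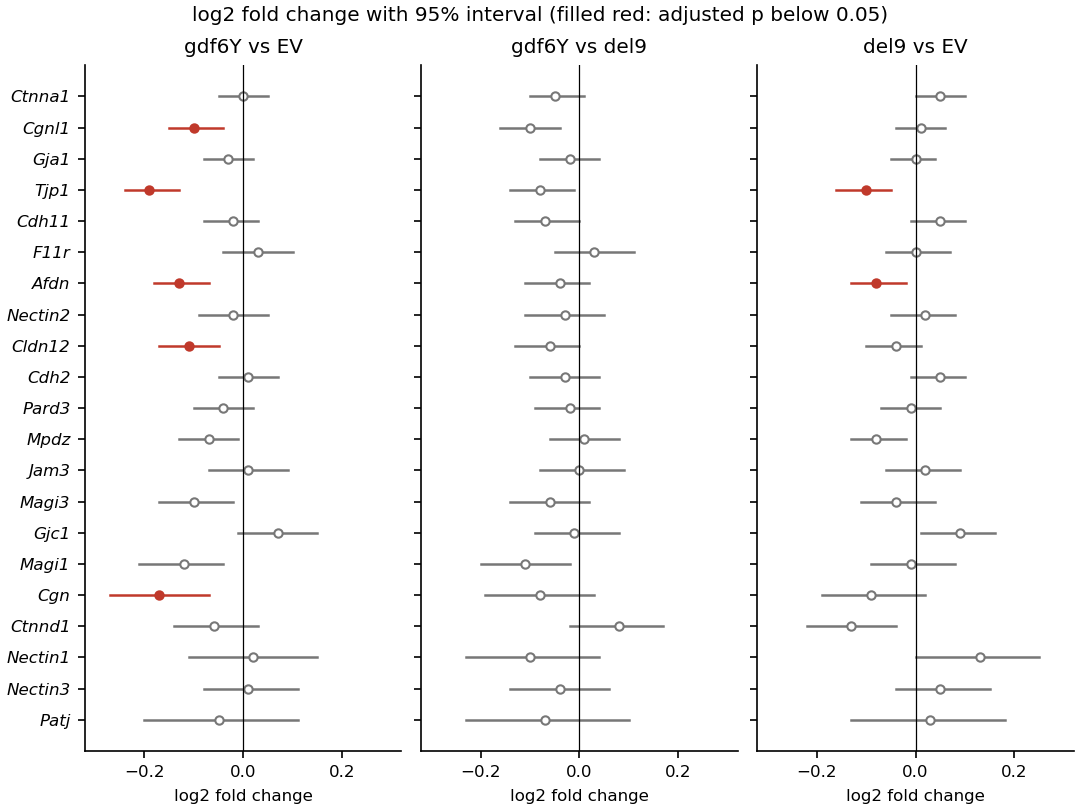
Log2 fold changes (points) with 95% intervals (lines) of 21 expressed junction genes in the 3 comparisons, with filled red points for an adjusted p-value below 0.05; *Cxadr* is left out for its wide interval. With gdf6Y compared with EV, 5 genes are filled, all on the negative side; there are none with gdf6Y compared with del9 and 2 with del9 compared with EV.

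The comparison of gdf6Y with del9 asks how the intact growth factor and its mutant variant differ. No junction gene passed edgeR's test in either direction, next to 0.41% of the 25878 genes tested that were called downregulated and 0.599% that were called upregulated. Among expressed genes these were 0.835% and 0.97%. At an unadjusted p-value below 0.05, 4 of the 22 expressed junction genes were lower and 0 higher, compared with 6.63% of all expressed genes for lower. The median log2 fold change was -0.04 for the expressed junction genes and -0.004 for all expressed genes.

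*Cgnl1* was the closest to the threshold, with all gdf6Y samples below all del9 samples (log2 fold change -0.10, standard error 0.03, adjusted p = 0.0746 by edgeR). DESeq2 called it downregulated (adjusted p = 0.0341), and it was the only junction gene that DESeq2 called in this comparison. A model of all 3 groups called it as well (adjusted p = 0.044 by edgeR), as did the fit without gdf6Y replicate 1 (adjusted p = 0.022 by edgeR). It was not called with other scalings, with stricter filters for low counts, or with edgeR 4's dispersion estimate. The correction for gene length or GC content alone gave no call either, nor did leaving out any other single sample. Its level with del9, 8170 ± 154 normalized counts (SD, n = 5), overlapped with that of EV, and the log2 fold change between the latter was 0.01 with an interval from -0.04 to 0.06.

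*Magi1*, *Tjp1* and *Cdh11* were the other genes below an unadjusted p-value of 0.05. *Magi1* had 663 ± 34.7 normalized counts (SD, n = 5) in gdf6Y and 719 ± 35.7 (SD, n = 5) in del9, with an adjusted p-value of 0.411 in edgeR's test. *Tjp1* had a log2 fold change of -0.08 with an interval from -0.14 to -0.01, and an adjusted p-value of 0.435 in edgeR's test. *Cdh11* was at 4280 ± 154 (SD, n = 5) and 4495 ± 223 (SD, n = 5), with an adjusted p-value of 0.581 in edgeR's test. For *Afdn* the log2 fold change was -0.04 with an interval from -0.11 to 0.02, for *Cldn12* -0.06 with an interval from -0.13 to 0.00, and for *Cgn* -0.08 with an interval from -0.19 to 0.03. For *Gja1* it was -0.02 with an interval from -0.08 to 0.04, and for *Ctnna1* it was -0.05 with an interval from -0.10 to 0.01.

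In the comparison of del9 with EV, which asks what the mutant plasmid changes, *Tjp1* and *Afdn* were downregulated and no junction gene was upregulated. Against this, 4.43% of the 26226 genes tested were called downregulated and 4.82% upregulated, and 8.25% and 9.97% of the expressed genes. Of the 38 junction genes, 34 were tested. At an unadjusted p-value below 0.05, 4 genes were lower and 2 higher, and the share of all genes at this threshold was not counted. DESeq2 called 3 lower and 1 higher, and its numbers over all genes are not given here, so these counts have no background. *Tjp1* fell by 6.98% (log2 fold change -0.10, standard error 0.03, adjusted p = 0.00462 by edgeR). With gdf6Y, against the same EV samples, it fell by 12.2%. *Afdn* fell by 5.24% (log2 fold change -0.08, standard error 0.03, adjusted p = 0.048 by edgeR) and, with gdf6Y, fell by 8.47%.

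Both calls depended on single samples. Without del9 replicate 3, none of the junction genes was called, and *Tjp1* had an adjusted p-value of 0.076 in edgeR's test. *Afdn* lost the call in 11 of 22 alternative settings. With 1 of EV replicates 1, 3 or 5 or del9 replicates 4 or 5 left out, *Tjp1* was the only gene called, and without del9 replicate 2, *Ctnnd1* and *Mpdz* were called in addition to *Tjp1* and *Afdn*.

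*Ctnnd1* and *Mpdz* were the other genes with a lower level at an unadjusted p-value below 0.05. *Ctnnd1* was at 482, 620.8, 557.2, 552.7 and 572.1 normalized counts in the del9 samples, compared with 584 to 632 with EV, and del9 replicate 1 was the lowest of all 16 samples. Its adjusted p-value was 0.0529 in edgeR's test. *Mpdz* had 2419 ± 59 (SD, n = 5) in del9 and 2555 ± 38.6 (SD, n = 6) in EV, and all del9 samples were below all EV samples, at an adjusted p-value of 0.0963 in edgeR's test. The genes with a higher level were *Ctnna1* and *Gjc1*, and *Ctnna1* was the only expressed junction gene with all del9 samples above all EV samples. *Ctnna1* had 13083 ± 192 (SD, n = 5) and 12643 ± 149 (SD, n = 6) normalized counts, at an adjusted p-value of 0.216 in edgeR's test and of 0.04 in DESeq2's. *Gjc1* had a log2 fold change of 0.09 at an adjusted p-value of 0.203 in edgeR's test, with 3 of 5 del9 samples above all EV samples. *Nectin1*, at 249 ± 11.3 (SD, n = 5) compared with 229 ± 18.7 (SD, n = 6), had an adjusted p-value of 0.291 in edgeR's test.

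The expressed junction genes are long, and fold changes against EV varied with the length of genes. The median exonic length was 10050 bases for the 22 genes and 6153 bases for 12543 expressed genes with an annotation, and 11 of the 22 were in the longest quintile. In the longest quintile of all expressed genes, the median log2 fold change was -0.045 with gdf6Y and -0.035 with del9 compared with EV. In the shortest quintile it was 0.048 and 0.051. Between gdf6Y and del9 the medians were -0.011 and 0.004.

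The gap between long and short genes was also calculated per sample, as the median log2 ratio to the EV mean in the longest quintile minus that in the shortest, and it ranged from -0.031 to 0.026 in the EV samples, from -0.156 to -0.066 in the gdf6Y samples and from -0.118 to -0.035 in the del9 samples. All gdf6Y and del9 samples were below all EV samples. gdf6Y replicate 5, which had the lowest values for 12 junction genes, had the widest gap (-0.156), and del9 replicate 3, without which no gene was called against EV, had the widest gap of its group (-0.118).

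With a correction for gene length, 3 junction genes were downregulated with gdf6Y compared with EV (*Tjp1*, *Cgnl1* and *Cgn*) and 1 with del9 compared with EV (*Tjp1*). Over all genes, 673 were downregulated with gdf6Y compared with EV under this correction, next to 890 without it. *Tjp1*, with 7925 exonic bases, changed little under the correction, with log2 fold changes of -0.18 against EV for gdf6Y and -0.11 for del9. *Afdn*, with 14687 exonic bases, was at -0.07 and -0.04. Whether the length trend came from the cells or from the libraries was not tested.

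Other genes of the same junctions were taken from a list of 114 symbols, of which 112 matched the table. Of these, 45 were expressed and 31 had no read. With gdf6Y compared with EV, 3 of the 45 expressed genes were upregulated and 7 downregulated, next to 3.51% and 7.03% of all expressed genes. The median log2 fold change of the 45 genes was -0.021, and that of all expressed genes was 0.001. The smallest adjusted p-values belonged to *Amotl1*, *Tjap1*, *Vcl*, *Amot* and *Pals1*. *Amotl1* and *Amot* encode angiomotins, which bind actin and the polarity complexes of tight junctions. *Amotl1* had 5924 ± 82.9 normalized counts (SD, n = 6) in EV, 5347 ± 273 (SD, n = 5) in gdf6Y and 5493 ± 142 (SD, n = 5) in del9 (log2 fold change -0.15 with gdf6Y compared with EV, adjusted p = 1.47e-05 by edgeR).

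*Amot* had 845 ± 22 normalized counts (SD, n = 6) in EV, 746 ± 37.9 (SD, n = 5) in gdf6Y and 743 ± 37.2 (SD, n = 5) in del9, and was downregulated in both comparisons with EV. *Pals1*, a partner of PATJ in the Crumbs polarity complex, was downregulated in both as well (log2 fold changes of -0.15 and -0.12). *Vcl*, the gene of vinculin, which strengthens the actin link of alpha-catenin, was downregulated with gdf6Y (log2 fold change -0.11, adjusted p = 0.000556 by edgeR). *Tjap1*, the gene of a tight junction-associated protein, was upregulated from 2040 ± 59.7 (SD, n = 6) to 2267 ± 101 (SD, n = 5). *Ctnnb1* (beta-catenin), which joins cadherins to alpha-catenin and was named after its values were seen, had a log2 fold change of 0.01 at an adjusted p-value of 0.873 in edgeR's test.

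With del9 compared with EV, 3 of the 45 expressed genes of this list were upregulated and 6 downregulated, next to 9.97% and 8.25% of all expressed genes. The median log2 fold changes were 0.02 and 0.005. The smallest adjusted p-values belonged to *Ybx3*, *Amotl2*, *Amot*, *Vasp* and *Amotl1*. *Ybx3*, which encodes a transcription factor that binds ZO-1, was at 17942 ± 492 (SD, n = 6) in EV, 18912 ± 611 (SD, n = 5) in gdf6Y and 19784 ± 556 (SD, n = 5) in del9. *Amotl2* was at 7562 ± 296 (SD, n = 6), 7409 ± 145 (SD, n = 5) and 6922 ± 192 (SD, n = 5). *Vasp*, the gene of an actin-elongating protein, was upregulated with del9 (log2 fold change 0.12, adjusted p = 0.000587 by edgeR). Between gdf6Y and del9, no gene of the list passed edgeR's test, whereas DESeq2 called 1 upregulated and none downregulated. At an unadjusted p-value below 0.05, 7 of the 76 genes of the list that were tested were higher and 8 lower. The share at this threshold was counted only for expressed genes that were lower, and was 6.63% of them. In this comparison, the smallest adjusted p-values in edgeR's test were those of *Amotl2* (0.0641), *Pvr* (0.209), *Panx1* (0.229), *Ctnna3* (0.271) and *Ildr2* (0.322).

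**Figure D3:**
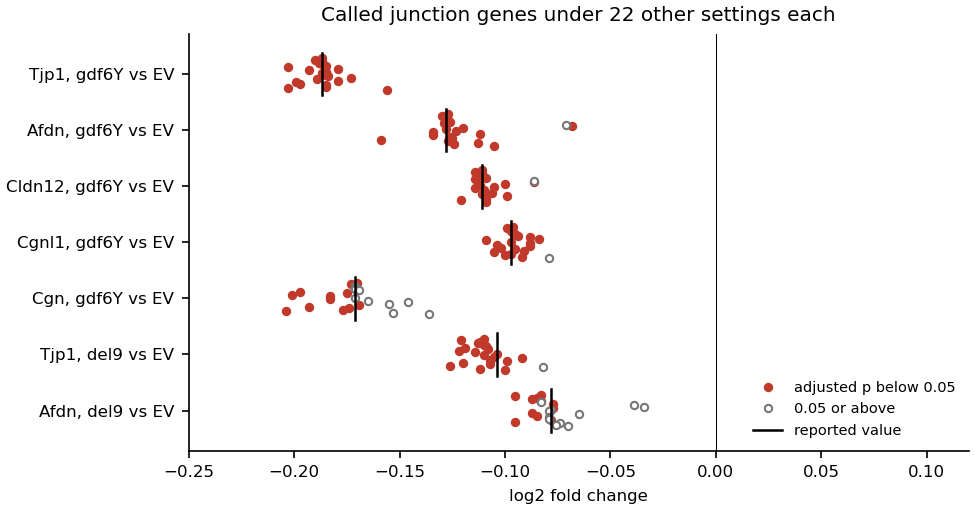
Log2 fold changes of the called junction genes under 22 alternative settings each (points, filled red where the adjusted p-value was below 0.05) next to the reported value (black line). *Tjp1* with gdf6Y compared with EV is filled under all 22 settings, *Cgn* under 12 and *Afdn* with del9 compared with EV under 11, and no point crosses 0.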

How the data were processed

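The authors moved the unique molecular identifiers to the read names with UMI-tools, aligned the reads to GRCm39 with STAR 2.7.10a, removed PCR duplicates and counted uniquely mapped reads per gene and strand with FeatureCounts 2.0.3. The counts are deposited as whole numbers and were not normalized.

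EdgeR 4.0.16 (R 4.3.3) was used on the counts. A gene entered a comparison if 1 or more samples of either group had a read, libraries were scaled with TMM, and each quasi-likelihood model held 2 groups without covariates. The Benjamini-Hochberg adjustment covered all tested genes (threshold 0.05). Standard errors were derived from the fold change and the F statistic. The 95% intervals multiply this error by a quantile of the normal distribution, without allowance for the small number of samples. For 56017 of the 56748 identifiers, positions and lengths were taken from GENCODE for GRCm39, whose release differs from the authors' annotation. The junction genes and lists were chosen with earlier results of these data known. Called genes are given per sample, all others by group or range, and from the wider list the 5 smallest adjusted p-values per comparison are named. The test was checked on simulated counts. Replicates differed by more than counting error in all 35 pairs (chi-square per degree of freedom 1.41 to 11.5). Results of 1 withheld item are not reported here.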

Additional observations from a re-analysis of the deposited data

Results flagged for a closer look

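Among 66 combinations of an expressed junction gene and a group, 3 had a highest or lowest sample far from the rest by Dixon's test, and chance flags about 1 in 20, or 3.3 of them. *Jam3* in EV had a gap of 0.639 of the group's range, as replicate 1 was at 938.9 normalized counts and the other samples were at 778.4 to 836.3. *Cdh11* in gdf6Y had a gap of 0.721, as replicate 5 was at 4014.8 and the others were at 4301.3 to 4412.3. *Nectin2* in gdf6Y had a gap of 0.717, as replicate 2 was at 1089.8 and the others were at 1179.1 to 1214.3. None of these genes passed the test in any comparison, and the cause was not tested.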

How the results depend on the processing

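Alternatives were the DESeq2 test, scaling by DESeq2 size factors or by total counts, the filters filterByExpr and a mean count of at least 10, a joint model of all 3 groups, a replicate block, corrections for GC content or gene length, the latter also with the block, leaving out each sample in turn and, chosen after seeing the data, the newer dispersion estimate of edgeR 4. No called junction gene changed direction, and the cause of a changed call was not tested unless stated. With gdf6Y compared with EV, 5 junction genes were downregulated, 3 with the length correction and 3 to 6 with 1 sample left out (3 without gdf6Y replicate 5). With gdf6Y compared with del9, none was downregulated, 1 (*Cgnl1*) with DESeq2 and with all 3 groups in one model, and 0 to 1 with 1 sample left out. With del9 compared with EV, 2 were downregulated, 4 with total counts, 1 each with all 3 groups in one model, the length correction and edgeR 4's dispersion, 0 to 4 with 1 sample left out, and 1 was upregulated with DESeq2. Replicate numbers are shared between groups, and no label says that they mark a shared batch or culture. They were taken to pair samples only if every same-numbered pair correlated above 0.1, which held for 4, 4 and 2 of 5 pairs. Correlations of same-numbered deviations from the group means were 0.003 to 0.198 (gdf6Y and EV), 0.099 to 0.167 (gdf6Y and del9) and -0.026 to 0.163 (del9 and EV), and 3, 4 and 1 of 5 pairs correlated best with their own number, a hint from the data and not from the design. With the replicate block, 7 junction genes were downregulated with gdf6Y compared with EV (*Magi1* and *Magi3* in addition), 1 compared with del9 (*Cgnl1*), and 3 with del9 compared with EV. With block and length correction together these were 5, 1 and 1, and 2 genes were upregulated with del9 compared with EV.

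Over all genes, 448 were upregulated and 890 downregulated with gdf6Y compared with EV. The upregulated numbered 821 with the block, 782 with block and length correction, and 235 to 718 with 1 sample left out. The downregulated numbered 673 with the length correction, 1240 with the block, 977 with both, and 559 without gdf6Y replicate 5. Compared with del9, 155 were upregulated and 106 downregulated, 26 and 19 with filterByExpr, 27 and 19 with a mean count of at least 10, 48 and 33 with DESeq2, 289 and 372 with the block, 345 and 305 with block and length correction, 94 to 243 and 66 to 198 with 1 sample left out, and 59 downregulated with edgeR 4's dispersion. With del9 compared with EV, 1263 were upregulated, and 838 with the length correction. In the wider list, 3 genes were upregulated with gdf6Y compared with EV, and 1 to 4 with 1 sample left out. For genes at about the level of *Cxadr*, depth limits the comparison.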
